A study of Homo sapiens with 20 samples.

Results

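The genes described here encode the proteins of the small (40S) subunit of the cytosolic ribosome: RPSA, RPS2 to RPS29 and FAU. They were taken as a named group, and all 32 were found among the 19029 Ensembl gene IDs of the count tables. The tables carry IDs without names, so each ID was paired with its symbol by the order of the member list, and that pairing was not checked against a name table. In the RefSeq annotation of GRCh38.p14 all 32 symbols are protein-coding genes.

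Counts came from selective translation complex profiling of HEK 293T, an established human line from embryonic kidney that the labels give as wild type. The cells received DMSO, the solvent, or 5 µM i14G1-12 for 1 h. The series title places the compound in the setting of an inhibitor that acts on eIF1 and eIF4G1, a pair of initiation factors. After crosslinking with 0.15% formaldehyde and RNase I digestion, initiation complexes were pulled down through 1 of 4 factors, and the mRNA footprints in them were sequenced: HA for HA-tagged eIF1, eIF4G1, HA-eIF2a or eIF3. The labels do not say how the tagged factors were expressed, and no cell type marker could be checked because the IDs carry no names. There were 20 libraries, 3 per treatment for eIF1 and eIF4G1 and 2 per treatment for eIF2a and eIF3, and every immunoprecipitation had its own DMSO libraries. No library of unselected RNA was used here. Each value is thus relative to the other RNA of its own immunoprecipitate, and a change in mRNA level cannot be told apart from a change in how often that mRNA was held in a complex.

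The small subunit is the part of the ribosome that is loaded onto an mRNA during initiation, together with eIF1, eIF2, eIF3 and the initiator tRNA, while eIF4G1 joins it to the mRNA's cap-binding factors. It scans from the cap to the start codon, and eIF1 keeps it in a scanning state until a start codon is met. The mRNAs of ribosomal proteins are themselves among the most heavily translated in growing cells. They are the classical TOP mRNAs, which begin at the cap with a C and a run of pyrimidines, and the translation of TOP mRNAs as a group is known to follow mTOR signalling.

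To show that feature, the bases around the annotated start of transcription were taken from RefSeq (GRCh38.p14) for 6 members: RPSA, RPS26, RPS3 and RPS28, which are 4 of the 6 members that changed in at least 1 treatment comparison below, and RPS6 and RPS12, which had among the lowest values in eIF1 complexes. Each window holds 15 bases before the start and 15 from it on, and capitals mark a run of at least 5 pyrimidines that begins with a C at the start itself.
RPSA, chr3:39406705-39406734, plus strand: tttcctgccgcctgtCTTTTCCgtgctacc
RPS26, chr12:56041903-56041932, plus strand: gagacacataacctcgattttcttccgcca
RPS3, chr11:75399503-75399532, plus strand: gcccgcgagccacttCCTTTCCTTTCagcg
RPS28, chr19:8321481-8321510, plus strand: tccccgaagcacgtgactcctctccgccag
RPS6, chr9:19380222-19380251, minus strand: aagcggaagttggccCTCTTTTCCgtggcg
RPS12, chr6:132814554-132814583, plus strand: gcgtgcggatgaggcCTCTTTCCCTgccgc
Of these, RPSA, RPS3, RPS6 and RPS12 begin with such a run, and RPS26 and RPS28 have pyrimidines only further into the transcript. In RPS28 a run that begins with a C opens at the base right after the annotated start.

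Depth set what could be seen. Total counts ran from 10033 to 1161512 per library, and the shallowest library was the second eIF2a DMSO library, in which 24 of the 32 genes had fewer than 10 counts. It also stood apart from the rest, with a median rank correlation of 0.47 with the other libraries, and the second eIF3 DMSO and second eIF3 i14G1-12 libraries stood at 0.60 and 0.62 against 0.72 to 0.83 for the others. No member was at 0 counts in any library, and all 32 passed the filter on low counts in every fit. The eIF1 libraries are called a, b and c because their columns could not be tied to replicate numbers. Nothing in the labels says that replicates were separate cultures, so p-values measure only the spread between these libraries.

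The first question was how much of each immunoprecipitate the 32 genes made up. In eIF4G1 complexes their summed share of all counts was 2.17%, 1.84% and 1.66% in the 3 DMSO libraries and 2.70%, 2.94% and 2.69% in the 3 i14G1-12 libraries. The groups did not overlap, and the means were 1.89% ± 0.26 and 2.78% ± 0.14 (SD, n = 3 each). In eIF1 complexes the share was 3.22%, 2.73% and 3.13% in DMSO and 2.95%, 2.77% and 2.85% in i14G1-12, so the treated libraries lay inside the DMSO range. The compound thus went with a higher share in 1 of these 2 immunoprecipitations, and no p is given for a sum over chosen genes.

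In eIF2a complexes the share was 3.28% and 2.54% in DMSO and 2.72% and 3.32% in i14G1-12. The lower DMSO value comes from the shallow library, where counting alone gives a range of 2.24% to 2.87% (exact 95% binomial interval, counting error only). In eIF3 complexes it was 1.76% and 1.26% in DMSO and 2.58% and 1.42% in i14G1-12. The groups overlapped in both. In the DMSO libraries the share was thus higher in eIF1 and eIF2a complexes, at 2.54% or more, than in eIF4G1 and eIF3 complexes, at 2.17% or less. A single gene, ENSG00000173812, took 5.45% to 16.7% of the counts in the eIF1 libraries and at most 0.46% elsewhere. With that gene left out of the total, the eIF1 DMSO shares were 3.75%, 2.88% and 3.37%.

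**Figure D1:**
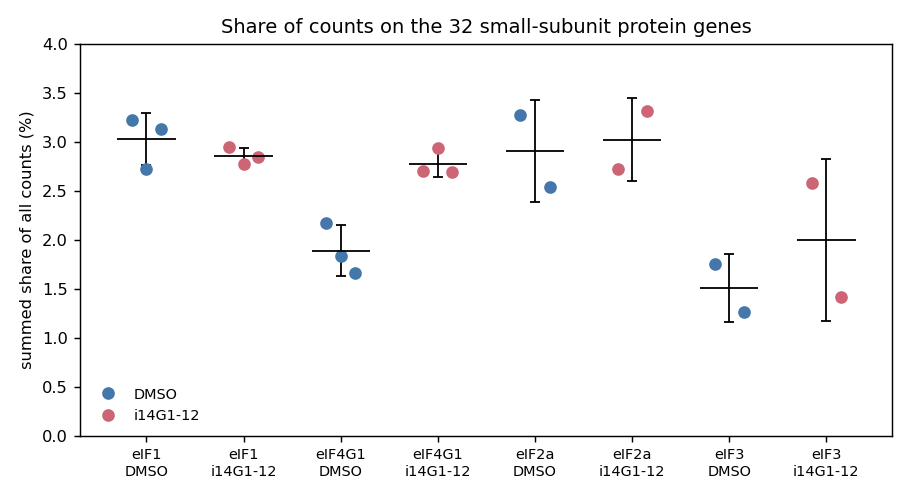
Summed share of all counts (%, y axis) on the 32 small-subunit protein genes in each of the 20 libraries (points), by immunoprecipitation and treatment, with the group mean (line) and SD (bar). The 3 eIF4G1 i14G1-12 libraries, at 2.69% to 2.94%, all lie above the 3 eIF4G1 DMSO libraries, at 1.66% to 2.17%, while the groups overlap for eIF1, eIF2a and eIF3.

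Before turning to the compound, the DMSO libraries show how the 32 mRNAs compared with each other. Per kilobase of counted sequence and with all 20 libraries scaled together, every member was in the top 10% of the 9426 genes tested in each of the 8 groups. In eIF1 complexes in DMSO the median member stood at 1527 CPM (counts scaled to library size) per kilobase, against 13.1 for all genes. RPS15, a head protein near the decoding centre, had the highest level, at 4460.2 ± 945 (SD, n = 3), followed by RPS10 at 3282 ± 1195 and RPS29 at 3025 ± 735. Their ranges overlapped, but RPS15 was above RPS10 and RPS29 in each eIF1 DMSO library. The order of RPS10 and RPS29 changed between libraries and is not settled. The lowest were RPSA at 288 ± 16.7, RPS15A at 297 ± 36.8 and RPS23 at 305 ± 56.9 CPM per kilobase (SD, n = 3), and these 3 overlapped too. Counted lengths ran from 295 bases for RPS29 to 3252 for RPS23, against a median of 722.5 over the members and 2957 over all genes, so a level per kilobase also depends on which transcript was counted.

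Scaled CPM without the length were then compared between immunoprecipitations in DMSO. Each immunoprecipitation was set against the mean of the 3 others in 1 edgeR fit of all 20 libraries. In eIF1 complexes 17 of the 32 genes were higher and 0 lower at an edgeR adjusted p under 0.05, where 3.76% of all 9426 genes were higher. All 32 differences were above 0, with a median log2 difference of 0.92, against 0.04 over all genes. Being above the mean of the others does not make eIF1 the highest: RPSA, RPS6 and RPS24 had mean CPM of 351, 966 and 981 in eIF2a complexes, against 329, 961 and 957 in eIF1 complexes. The eIF2a means rest on 2 libraries, 1 of them the shallow one. RPS6 stood at 1721 and 212 CPM in them, so the order of eIF1 and eIF2a is not settled for these genes. In the other contrasts 0 members passed. Genes called there were 0.117% of those tested for eIF4G1, 0.053% for eIF2a and 0.0955% for eIF3.

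RPS26, a platform protein next to the mRNA exit, differed most. Its CPM in DMSO were 1924, 886 and 1339 in eIF1 complexes, 618, 343 and 383 in eIF4G1 complexes, 665 and 265 in eIF2a complexes and 333 and 167 in eIF3 complexes. All 3 eIF1 libraries lay above the other 7. The log2 difference from the mean of the others was 1.78 (SE 0.30, edgeR adjusted p = 3.6e-05). RPS3, RPS28, RPS9, RPS14, RPS10 and RPS27 had log2 differences of 1.51 to 1.19, and RPS4X, RPS15, RPS13, RPS23, RPS29, FAU, RPS7 and RPS25 had differences of 1.11 to 0.90. Among the entry-channel proteins, which line the path by which mRNA enters the subunit, RPS3 (1.51, edgeR adjusted p = 0.00053) and FAU (1.01, edgeR adjusted p = 0.0332) were thus called, and RPS2 was not (0.51, edgeR adjusted p = 0.421). RPS6 had the smallest difference, 0.29. In eIF3 complexes all 32 genes had negative differences, with a median of -0.89, against 0.04 over all genes, of which 52.8% were above 0. The smallest adjusted p there was that of RPS27 (log2 difference -1.30, SE 0.37, edgeR adjusted p = 0.318). These contrasts are not independent, because high eIF1 values raise the mean against which eIF3 is set.

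The count for eIF1 rested on library a and on scaling. Without eIF1 DMSO a, RPS26 alone was called, although all 32 differences stayed above 0 with a median of 0.85. Over all genes 77 were then called higher and 5 lower, against 354 and 31 with all libraries. Without eIF1 DMSO c 9 were called, without eIF2a DMSO 2 or eIF3 DMSO 2 11 each, and with total counts only 6 were called with 28 above 0 and a median of 0.48 against -0.33 for all genes. Without eIF2a DMSO 1, 24 were called, but the median of all genes was then 1.55, above the 1.33 of the members. Antibody, tag and library batch cannot be told apart from the factor in this comparison.

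**Figure D2:**
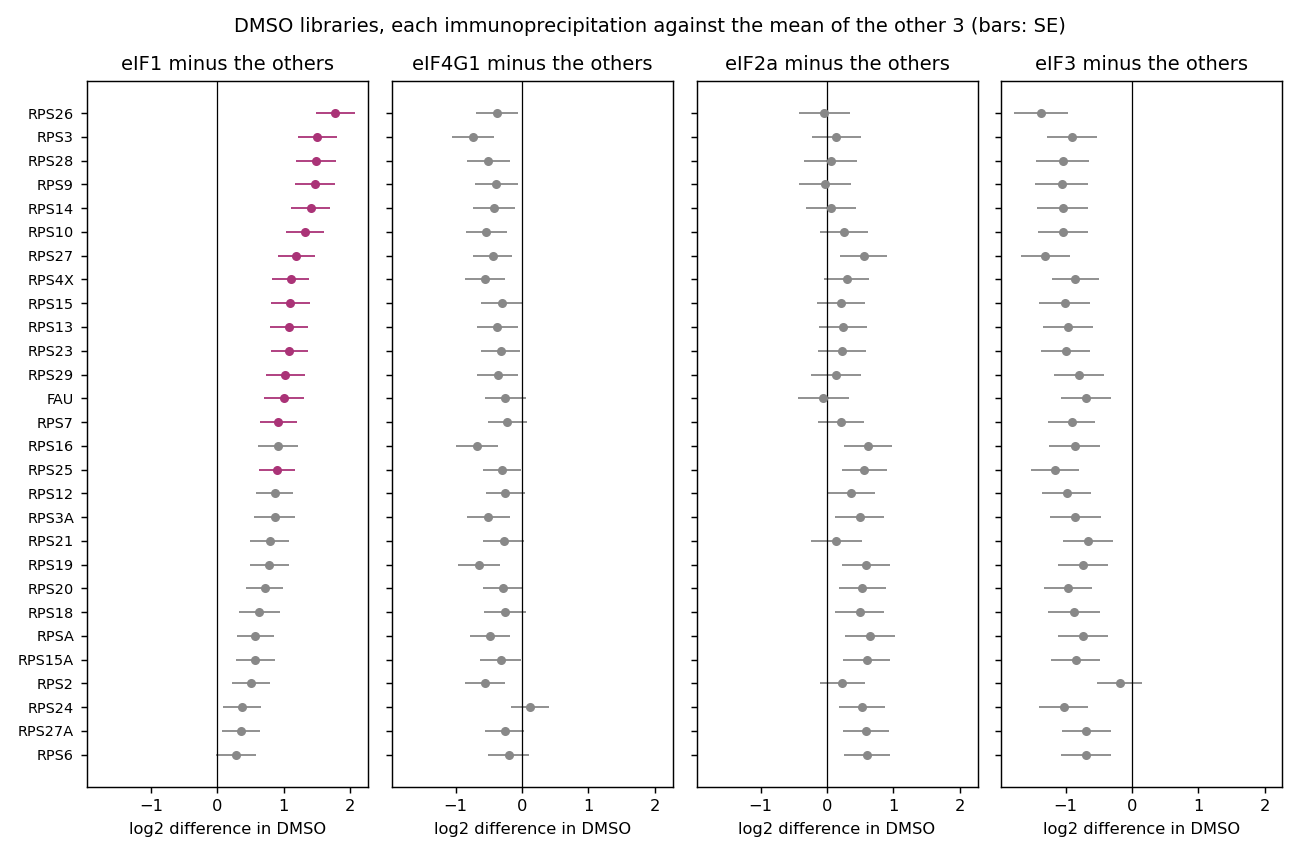
Log2 difference in the DMSO libraries (x axis) of each immunoprecipitation from the mean of the 3 others, for 28 of the 32 genes (rows, ordered by the eIF1 difference), with SE bars; purple points pass an edgeR adjusted p of 0.05 over all 9426 genes. In eIF1 complexes all 28 points lie above 0 and 15 pass, in eIF3 complexes all 28 lie below 0 and none passes.

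In eIF1 complexes RPS20 fell and RPSA and RPS26 rose after the compound, while the other 29 did not pass. RPS20 (ENSG00000008988) encodes uS10, a protein of the subunit's head. Its CPM were 808, 779 and 786 in DMSO and 259, 353 and 359.8 in i14G1-12. The 3 DMSO libraries lay close together and clear of every treated library. The mean went from 791 ± 14.8 to 324 ± 56.7 CPM (SD, n = 3 each), 2.44 times lower (log2 fold change -1.28, SE 0.21, edgeR adjusted p = 0.00539). It was 1 of 11 genes that fell, which is 0.132% of the 8338 tested.

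RPSA (ENSG00000168028) encodes uS2, also known as the laminin receptor, which lies where head and platform meet. Its CPM were 259, 292 and 255 in DMSO and 801, 502 and 471 in i14G1-12. The mean rose 2.19 times (log2 fold change 1.13, SE 0.23, edgeR adjusted p = 0.0234). RPS26 (ENSG00000197728) had 1526, 740.5 and 1098 CPM in DMSO and 3286, 2432 and 2015 in i14G1-12, a rise of 2.30 times (log2 fold change 1.20, SE 0.26, edgeR adjusted p = 0.0317). For both genes every treated library lay above every DMSO library, with treated library a the highest. Genes that rose made up 0.324% of all those tested.

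RPS12, a protein of the beak of the head, came next, with 583, 734 and 599.7 CPM in DMSO and 191, 289 and 459 in i14G1-12 (log2 fold change -1.03, SE 0.25, edgeR adjusted p = 0.0617). It did not pass, although the groups did not overlap. RPS6, the body protein known as a substrate of S6 kinase, had 653, 796 and 908 CPM in DMSO and 422, 484 and 528 in i14G1-12 (log2 fold change -0.72, edgeR adjusted p = 0.123), again apart and not called.

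Over the whole set 15 values were above 0, where 50.6% of all genes were, and 17 below, with a median log2 fold change of -0.03, against 0.00 over all genes. In 10 members all treated libraries lay below all DMSO libraries, where 9.58% of all genes did, and in 2 they lay above, where 8.73% did. The 10 were 7 of the 14 head proteins (RPS12, RPS18, RPS19, RPS20 and RPS27A among them) and 3 of the 18 body and platform proteins (RPS6, RPS15A and RPS21). At an unadjusted p under 0.05, 9 members were lower and 2 higher, against 5.86% and 6.52% of all genes. The entry-channel genes RPS3, FAU and RPS2 had log2 fold changes of 0.40, 0.20 and -0.06, all with overlapping groups.

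RPS18, RPS27A and RPS6 followed the level of RPS20 over the 6 eIF1 libraries with correlations of log2 CPM of 0.97, 0.95 and 0.93, and RPSA ran most against it, at -0.98. Both treatments are in these libraries, so the treatment difference is part of each value. Among all genes tested, ENSG00000085733, ENSG00000156482 and ENSG00000228300, which are not members, were the most like RPS20, at 0.997, 0.996 and 0.990.

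The 3 calls depended on single libraries. Without DMSO b RPS20 alone was called, without DMSO c or i14G1-12 c none was, and without i14G1-12 b RPS26 was lost (edgeR adjusted p = 0.0681), while without i14G1-12 a all 3 remained at log2 fold changes of -1.15, 0.86 and 0.99. In 1 fit of all 20 libraries none passed (edgeR adjusted p = 0.339, 0.344 and 0.363 for RPS20, RPSA and RPS26). DESeq2 called 8, these 3 among them, and RPS6, RPS12 and RPS27A were lower there. Over all genes DESeq2 called 113 higher and 61 lower. With total counts only, which moved the median of all genes to -0.13, 9 values were above 0 rather than 15.

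**Figure D3:**
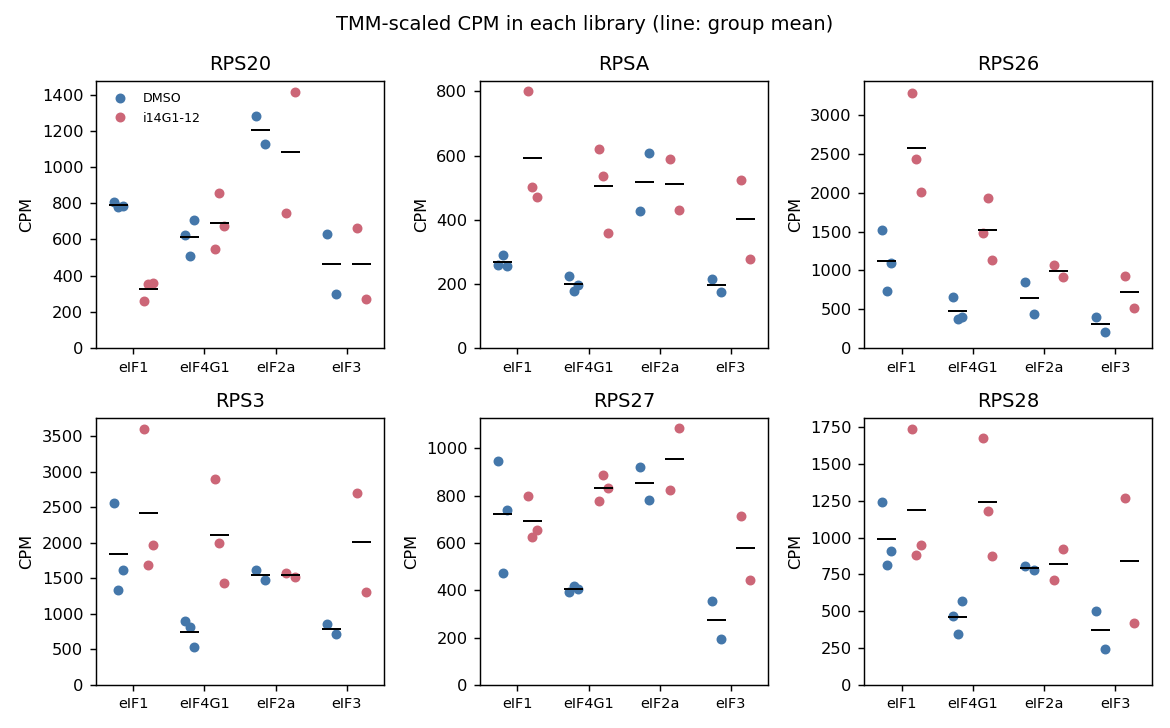
TMM-scaled CPM (y axis, from 0, each immunoprecipitation scaled on its own libraries) of RPS20, RPSA, RPS26, RPS3, RPS27 and RPS28 in each library, by immunoprecipitation (x axis) and treatment (colour), with group means as lines. In eIF1 complexes RPS20 is at 779 to 808 CPM in DMSO and at 259 to 359.8 in i14G1-12, and its groups overlap in the other 3, while RPS26 is higher in every treated library than in any DMSO library of the same immunoprecipitation in all 4.

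In eIF4G1 complexes 4 of the 32 members rose, RPS26, RPS3 and RPS28 among them, and 0 fell. Genes that rose made up 0.347% of the 7203 tested, and 0% fell. RPS26 had 654, 372 and 403 CPM in DMSO and 1478, 1938 and 1130.0 in i14G1-12, a rise of 3.15 times (log2 fold change 1.66, SE 0.31, edgeR adjusted p = 0.00848). RPS3 (ENSG00000149273), the entry-channel protein of the head, had 891, 816 and 533 CPM in DMSO and 2895, 1991 and 1437 in i14G1-12, a rise of 2.80 times (log2 fold change 1.49, SE 0.30, edgeR adjusted p = 0.0240). No treated library of either gene came down to the DMSO range.

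RPS28 (ENSG00000233927), a small head protein near the exit channel, rose from 467, 343 and 567 CPM to 1679, 1181 and 875 (log2 fold change 1.44, SE 0.31, edgeR adjusted p = 0.0356). RPSA did not pass, although its values went from 225, 177 and 197 CPM to 621, 537 and 359 (log2 fold change 1.32, SE 0.31, edgeR adjusted p = 0.0594). Both genes again had no overlap between the groups, and treated library 1 was the highest in each.

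Of all 32 members, 31 had log2 fold changes above 0, against 49.6% of all genes, and the median was 0.59, against -0.01. In 14 members every treated library lay above every DMSO library, where 7.40% of all genes did, and in 0 below, where 6.87% did. At an unadjusted p under 0.05, 16 were higher, against 5.86% of all genes, and 0 lower, against 2.79%, so that 16 differed either way, against 8.65%. The 14 were 7 head proteins (RPS3, RPS10, RPS15, RPS16, RPS25, RPS28 and RPS29) and 7 body and platform proteins (RPSA, RPS4X, RPS7, RPS14, RPS26 and RPS27 among them). RPS27, a zinc finger protein, did not pass and had 394, 417 and 403 CPM in DMSO and 777, 889 and 832 in i14G1-12 (log2 fold change 1.04, SE 0.27, edgeR adjusted p = 0.129).

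At the other end, RPS27A, made as a fusion with ubiquitin, was at 460.3 ± 145 and 462 ± 139 CPM (SD, n = 3 each; log2 fold change 0.00, SE 0.32). RPS20 was at 622, 509 and 709.6 CPM in DMSO and 549, 855 and 675 in i14G1-12, with overlapping groups (log2 fold change 0.18, SE 0.28, edgeR adjusted p = 0.912). RPS12 and RPS6, low in eIF1 complexes, also had overlapping groups here, at 0.13 and 0.06. FAU and RPS2 had log2 fold changes of 0.67 and 0.59 and did not pass (edgeR adjusted p = 0.541 and 0.625).

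Here too single libraries carried the calls. Without DMSO 1 RPS26 alone was called, without DMSO 2, DMSO 3 or i14G1-12 2 none was, and without i14G1-12 1 or i14G1-12 3 there were 5. Members above 0 were 26 to 32 in these runs, with medians of 0.48 to 0.69. With total counts only, 26 were above 0 with a median of 0.44, against -0.16 for all genes, and RPS28 was lost (edgeR adjusted p = 0.0506). DESeq2 called 11, all higher, and over all genes it called 81 higher and 10 lower.

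**Figure D4:**
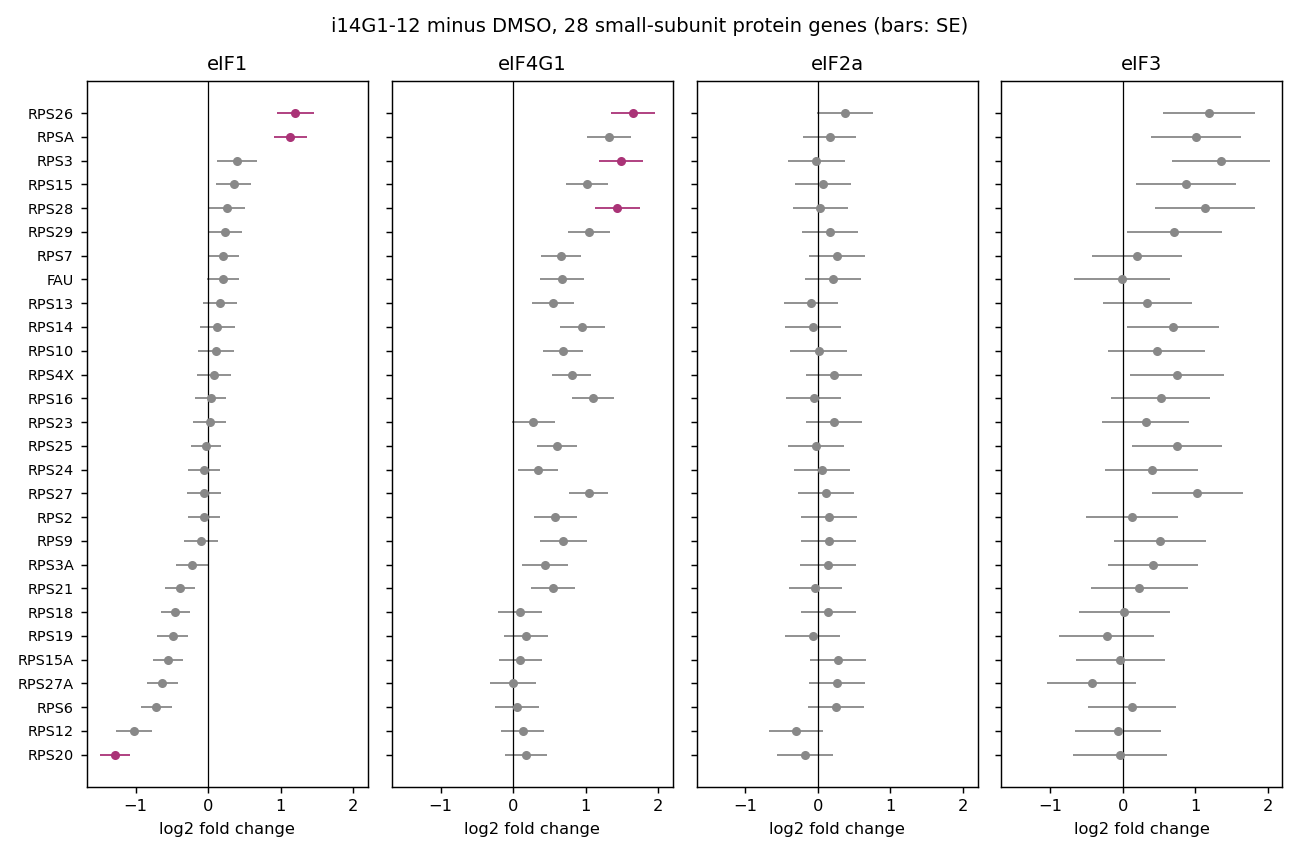
Log2 fold change of i14G1-12 against DMSO (x axis) with SE bars for 28 of the 32 genes (rows, ordered by the eIF1 value) in the 4 immunoprecipitations (panels); purple points pass an edgeR adjusted p of 0.05 over all genes tested in that comparison. RPS20 at -1.28 and RPSA and RPS26 at 1.13 and 1.20 pass in eIF1, 3 of the genes plotted pass in eIF4G1, where all 28 points lie above 0, and none passes in eIF2a or eIF3.

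In eIF2a and eIF3 complexes, with 2 libraries per group, 0 members passed in the fits without a replicate block. In eIF2a complexes 0% of the 4719 genes tested were called, and at an unadjusted p under 0.05 there were 0 members and 87 genes, or 1.84% (1.25% higher and 0.593% lower). The members' median log2 fold change was 0.12, against 0.06 for all genes, and 23 were above 0, against 56.6% of all genes (14 with total counts only). In RPS26 and RPS29 both treated libraries lay above both DMSO libraries, where 20.4% of all genes did, and in 0 members below, where 9.37% did. RPS26 had the highest value, with 857 and 433 CPM in DMSO and 1067 and 922 in i14G1-12 (log2 fold change 0.37, SE 0.39). RPS12 and RPS20 were the lowest, at -0.31 and -0.18, each with overlapping groups. Without the shallow DMSO library 8 members were above 0 and the median was -0.08, while without the other DMSO library RPS6 and RPS18 were called higher and the median was 0.95, against 0.58 for all genes. That run sets the shallow library alone against the treated libraries and assumes that it varies as they do, and RPS18 had 2 counts in it. DESeq2 called 0 with all 4 libraries.

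In eIF3 complexes 0.0159% of the 6300 genes tested were called, and at an unadjusted p under 0.05 there were 0 members and 110 genes, or 1.75% (1.24% higher and 0.508% lower). RPS3 had 849.7 and 719 CPM in DMSO and 2701 and 1313 in i14G1-12 (log2 fold change 1.35, SE 0.67). RPS26 had 400.0 and 210.3 CPM against 926 and 515 (1.19, SE 0.64). In both genes the treated libraries lay above the DMSO libraries, as in 8 members in all, where 12.5% of all genes did. RPS27A was the lowest, at -0.43, and RPS20 was at -0.04 with 632 and 298 CPM in DMSO and 662 and 269 in i14G1-12. The median was 0.37 with 24 above 0, against 0.02 and 51.5% for all genes. It was -0.12 with 12 above 0 without i14G1-12 1, 0.83 with 30 without DMSO 1, 0.14 with 20 without the shallower DMSO 2 and 0.76 with 31 without i14G1-12 2. DESeq2 called 0, while a fit with the replicate number as a block called RPS26 (log2 fold change 1.23, edgeR adjusted p = 0.0443). Over all genes the fit with the block called 35 higher and 3 lower.

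Whether the compound's effect differed between immunoprecipitations was tested directly, in 6 pairwise contrasts and 1 joint test of the fit of all 20 libraries. In each of these 7 tests 0 members passed. Genes called over all 9426 were 0.0318% for eIF1 against eIF4G1, 0.0106% for eIF4G1 against eIF2a, 0.0212% in the joint test and 0% in the remaining 4 pairs. The largest difference was that of RPS20, whose log2 fold change was lower in eIF1 than in eIF4G1 complexes (difference -1.44, SE 0.48, unadjusted p = 0.00416, edgeR adjusted p = 1.00). RPS20 also had the smallest p in the joint test (unadjusted p = 0.0217, edgeR adjusted p = 1.00). All 32 members had a lower log2 fold change in eIF1 than in eIF4G1 complexes, while 48.3% of all genes had a higher one. The median difference was -0.64, against -0.02 over all genes, with a range of -1.44 to -0.15. The SE of a single difference was, however, 0.49 at the median. At an unadjusted p under 0.05, 6 of the 32 members and 295 of the 9426 genes differed. Tests that miss the threshold at this error do not show that the effects are alike.

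A member's share of the 32-gene sum does not depend on how libraries are scaled. RPS20 made up 2.35%, 3.10% and 2.65% of that sum in eIF1 DMSO libraries and 0.668%, 1.32% and 1.27% in i14G1-12. In eIF4G1 complexes it was 2.80%, 2.82% and 4.18% and then 1.67%, 2.58% and 2.39%, and in eIF3 complexes 3.23% and 2.28% and then 2.14% and 1.71%. The treated values lay below the DMSO values in these 3 immunoprecipitations, though scaled CPM of RPS20 were separated between treatments in eIF1 complexes alone. A member's share also falls when other members rise. The log2 fold change of RPS20 was 0.18 in eIF4G1 and -0.04 in eIF3 complexes, where the medians over the members were 0.59 and 0.37. The lower share there thus came without a called change in the CPM of RPS20. With SEs of 0.28 and 0.65, whether its CPM fell there is not settled. In eIF2a complexes the share was 3.06% and 5.10% in DMSO and 2.15% and 3.31% in i14G1-12, with overlap.

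RPS26 took a larger share of the set after i14G1-12 in all 4 immunoprecipitations, and it was the 1 member of 32 without overlap in all 4. Its share was 4.44%, 2.94% and 3.70% in eIF1 DMSO libraries and 8.49%, 9.06% and 7.11% in i14G1-12. In eIF4G1 complexes it went from 2.95%, 2.05% and 2.37% to 4.49%, 5.85% and 3.9997%, in eIF2a complexes from 2.05% and 1.96% to 3.06% and 2.16%, and in eIF3 complexes from 2.04% and 1.61% to 2.99% and 3.28%. RPSA was higher without overlap in eIF1, eIF4G1 and eIF3 complexes. RPS12, RPS19, RPS20 and RPS27A, head proteins, were lower without overlap in 3 of the 4, and RPS27A was higher in the remaining one, eIF2a. Other head proteins went the other way: RPS3 and RPS15 were higher without overlap in 2 of the 4. All head members together made up mean shares, in DMSO and then i14G1-12, of 44.1% and 40.8% in eIF1 and 43.1% and 43.3% in eIF4G1 complexes. The means were 46.9% and 42.4% in eIF2a and 41.9% and 42.4% in eIF3 complexes. In eIF3 complexes, with 2 libraries a side, 21 of the 32 members had no overlap in one direction or the other, so a separation there says little by itself. The same caution holds in eIF2a complexes, where 4 members were higher and 2 lower without overlap. There RPS26 was separated by 2.16% against 2.05%, and its 1.96% came from the shallow library, with 255 counts over the set. In eIF1 complexes 5 members were higher and 10 lower, and in eIF4G1 complexes 5 and 6. These shares exist for members only, so no rate over all genes stands beside them.

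The order of the log2 fold changes over the 32 genes was alike in 3 of the immunoprecipitations. Pearson's r across the members was 0.84 between eIF1 and eIF4G1, 0.91 between eIF4G1 and eIF3 and 0.76 between eIF1 and eIF3, against 0.45, 0.37 and 0.38 across the 4414 genes tested in all 4. With eIF2a r was 0.39, 0.14 and 0.11. The comparisons share no libraries, but genes are not independent replicates, members have high counts and hence smaller errors than most genes, and no p is given. With eIF2a the sign turned when a single library was left out, from 0.39 to -0.22 for eIF1 without eIF2a DMSO 1. For the other 3 pairs r stayed between 0.55 and 0.92 over all libraries left out. A difference between DMSO libraries ran in a like order. The log2 difference of eIF1 from eIF2a complexes in DMSO had r of 0.68 with the eIF4G1 effects and 0.63 with the eIF3 effects. It shares no libraries with either effect. Such an order was also seen in this 1 difference without the compound, and its cause was not tested. The eIF2a side of it includes the shallow DMSO library. No r without that library or over all genes is given, so how far this likeness holds is not settled.

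**Figure D5:**
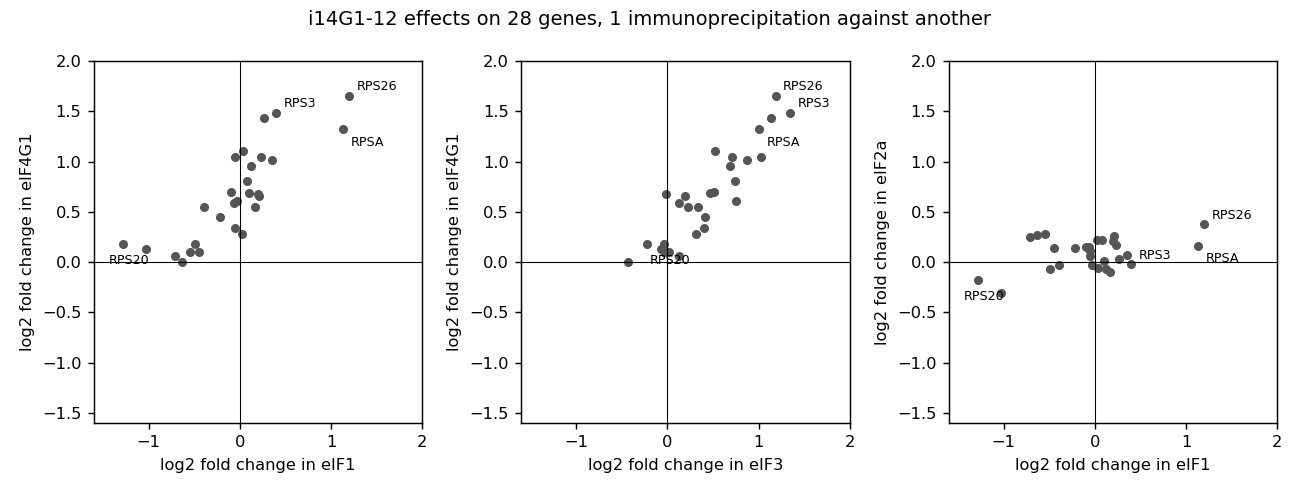
Log2 fold changes (i14G1-12 against DMSO) of 28 of the 32 genes (points) in one immunoprecipitation against another, with r over all 32: eIF4G1 against eIF1 (left, r = 0.84), eIF4G1 against eIF3 (middle, r = 0.91) and eIF2a against eIF1 (right, r = 0.39). RPS26, RPS3 and RPSA are at the upper right of the left and middle panels, and RPS20 is the leftmost point of the left and right panels.

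Sequence features were set beside these values. A RefSeq promoter entry was found for 25 of the 32 symbols, and RPS2, RPS15A and RPS20 were among those without one. On the gene's own strand, a C at the annotated start followed by at least 4 more pyrimidines (C or T) was present in 19 of the 25 (76.0%), against 5.14% of 27305 genes with an entry. With the start allowed to shift by up to 5 bases it was present in 21 (84.0%), against 25.2%. The match is to letters at an annotated start, and starts used in these cells were not measured.

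The 6 members without the run at the start, RPS4X, RPS7, RPS15, RPS26, RPS28 and RPS29, had log2 fold changes of 0.08 to 1.20 in eIF1 complexes with a median of 0.25, and the 19 with it had -1.03 to 1.13 with a median of -0.05. In eIF4G1 complexes the medians were 1.03 and 0.55, in eIF3 complexes 0.81 and 0.40, and in eIF2a complexes 0.19 and 0.06. The ranges overlapped in all 4. RPS26 and RPS28, printed above without capitals, are among the 6, while RPSA and RPS3, with runs of 7 and 11 pyrimidines, had high values as well. Across the 25 members the rank correlation of run length with log2 fold change was -0.49 for eIF1 and -0.37 for eIF4G1 complexes, and -0.46 for eIF2a and -0.40 for eIF3 complexes, as a description over genes. The counted length of a member had rank correlations of -0.01 to 0.27 with its log2 fold change.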

How the data were processed

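The deposited values are the authors' raw counts of reads per gene, in 1 table for each immunoprecipitation. The submitters' processing notes name featureCounts, HISAT2, Bowtie, Trimmomatic and cutadapt, without versions, and the build hg38. The treatment of multi-mapping reads is not stated in them. Ribosomal protein genes have many near-identical processed pseudogenes, so their counts may be split or lost. The members and lists were chosen with earlier results of these data known. Lists of 60S, mitochondrial ribosome, assembly factor and marker genes need names for the IDs and were not used here.

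Treatment comparisons were fitted per immunoprecipitation, and differences between them and the DMSO contrasts in 1 fit of all 20 libraries, with edgeR 4.0.16 in R 4.3.3 (filterByExpr with a minimum count of 10, TMM, glmQLFit, glmQLFTest), and p-values were adjusted over all genes tested by Benjamini-Hochberg with a threshold of 0.05. CPM are on TMM-scaled libraries. An SE is the log2 fold change over the root of F. Between replicates chi-square per degree of freedom was 1.34 to 10.2, above counting noise, and no library was treated as a duplicate. Members were named with values if they passed any test, were among the 2 highest or lowest log2 fold changes of an immunoprecipitation or the 3 highest or lowest levels per kilobase, or were RPS20, RPS2, RPS3 or FAU. A few members enter the counts, medians and sums but are not reported by name here, nor plotted singly. Alternatives were other scalings, filters, DESeq2 1.42.0, 1 fit of all 20 libraries, the replicate number as a block and leaving out each library.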

Additional observations from a re-analysis of the deposited data

How the results depend on the processing

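Of the values computed for the set, 450 under an alternative stayed within the bounds set for each kind of value, 35 moved past them and 7 changed sign. For single named genes 183 values stayed on their side of 0 and of the threshold, 30 no longer passed, 5 newly passed and 5 turned sign. The cause of each change was not tested. In eIF1 complexes the 3 members called became 5 with a minimum count of 30, 8 with DESeq2, 0 in 1 fit of all 20 libraries and 0 to 3 with 1 library left out. Over all genes, the 27 called higher and 11 lower became 42 and 28, 113 and 61, and 3 and 1 in those first 3 runs. With 1 library left out they were 1 to 38 higher and 1 to 26 lower. In eIF4G1 complexes the 4 became 7 with a minimum count of 30, 11 with DESeq2, 2 in 1 fit of all 20 libraries and 0 to 5 with 1 library left out. Over all genes, the 25 called higher and 0 lower became 40 and 0, 81 and 10, and 29 and 1 in those first 3 runs. With 1 library left out they were 4 to 45 higher and 0 to 4 lower. In eIF2a complexes leaving out 1 library gave 0 to 2 members called and a median log2 fold change of -0.0785 to 0.95 (0.58 for all genes at the upper end). The DMSO difference of eIF1 complexes had 17 members called, 6 with total counts only and 1 to 24 with 1 library left out, where the 24 came without eIF2a DMSO 1, with a median of 1.55 for all genes and 1.33 for the members. That of eIF3 complexes had 0, 3 with DESeq2 and 0 to 1 with 1 library left out. Leaving out 1 library gave likeness r of -0.37 to 0.65 for eIF1 and eIF2a (0.21 as Spearman's rho), -0.52 to 0.46 for eIF4G1 and eIF2a, -0.48 to 0.40 for eIF2a and eIF3, 0.55 to 0.80 for eIF1 and eIF3 and 0.70 to 0.92 for eIF4G1 and eIF3. RPS20 was not called in eIF2a or eIF3 complexes, and its log2 fold change changed sign there when 1 library was left out (a range of -0.68 to 0.26 in eIF2a and of -0.82 to 0.65 in eIF3).

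Equal replicate numbers were not taken as pairs. The deviations of such libraries correlated at 0.01, -0.10 and -0.15 in eIF4G1, at -0.02 in eIF2a and at 0.56 in eIF3. The eIF2a and eIF3 values each rest on 2 numbers only, so whether libraries were paired there is not settled. With the replicate number as a block, 4 members were called in eIF4G1 and 0 in eIF2a complexes. In eIF3 complexes the block gave 1, RPS26 (log2 fold change 1.23, edgeR adjusted p = 0.0443), and RPS20 stood at 0.0021. Over all genes the block fits called 30 higher and 1 lower in eIF4G1 and 35 higher and 3 lower in eIF3 complexes. In eIF2a complexes they called 0. No block could be fitted in eIF1 complexes, whose columns carry no replicate numbers. The second DMSO libraries of eIF2a and eIF3 held 10033 and 59179 counts, and both have 2 libraries per group, so depth and sample number cannot be told apart as limits.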
